A study of Mus musculus with 5 samples.

Results

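CD4 T cells of a lymph node were compared with and without exposure to 980 nm light, over the 138 genes that reached 1000 CPM in at least 1 of the 2 lymph node libraries (CPM is the count of a gene per 1000000 counts of its library). The 138 were taken from 6884 named genes with a count in either lymph node table, out of 10287 with a count in any of the study's 4 tables. CD4 T cells were sorted from mice with autoimmune colitis, from lymph node or colon, and every group, control and light alike, carried that colitis. The lymph node light group received laser light of 980 nm at 1.22 W and 80% duty over 4 square centimetres, in sessions of 5 minutes repeated every 2 days, and the lymph node control group is labelled only as control. Each group is 1 library, and strain, age, sex, number of animals per library, the way colitis was induced and any sham exposure of the controls are not given in the sources used here. A difference therefore has no replicate check, no p-value was computed, and the light and the library it came with cannot be told apart.

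CD4 T cells recognise peptides on MHC class II through the T-cell receptor and its CD3 chains, and in a lymph node they include naive cells next to activated effector cells that make cytokines and chemokines. The most abundant messages of a resting or recirculating lymphocyte encode ribosomal proteins, actin, thymosins and surface proteins, beside mitochondrial transcripts and long noncoding RNA. Near-infrared light of this kind is used in photobiomodulation, for which mitochondrial enzymes and calcium channels have been discussed as absorbers or sensors.

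The deposited counts of named genes summed to 971204 in the lymph node control library and 1068832 in the lymph node light library, over 382 and 379 barcode columns with 373 barcodes in common. The columns of a table were overlapping sums of the same molecules, so they are neither cells nor replicates. A molecule was counted in 84.5 columns in the control and 50.4 in the light library (mean weighted by size), and dividing by these numbers left 11499 and 21214 independent counts, called molecule-equivalents below. The limit of 1000 CPM corresponded to 11.5 molecule-equivalents in the control and 21.2 in the light library. Of 12 markers of CD4 T cells, 11 had a count in each library, and together they came to 9373 CPM in the control and 8074 CPM after light, with Cd28 at 0 in both. Neither CD8 gene, none of 6 epithelial markers and none of 4 haemoglobin genes had a count. By counting error alone a 0 allows up to 261 CPM in the control and 141 CPM in the light library, but genes that every cell uses, such as mt-Co2 and Aldoa, were also listed at 0, so a 0 in these tables is not read as absence. B-cell and plasma-cell markers summed to 1013 CPM in the control and 194 CPM after light, with Cd79a, Cd79b, Ms4a1 and Jchain among those at 0 in both. Small marker panels gave 341 and 507 CPM for 9 myeloid genes, 225 and 63.6 CPM for 5 natural killer and innate lymphoid genes, and 0 and 260 CPM for 5 stromal and endothelial genes. The order depended on the genes chosen: a list of 12 myeloid genes took 0.0795% of counts in the control and 0.0670% after light, and a list of 7 natural killer and innate lymphoid genes 0.0194% and 0.0313%. The part of these other cell types in any result below was not tested.

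Scaled to the library total, most of the 138 genes lay within 2-fold between the libraries. The log2 ratio of light over control was between -3.02 and 2.04, with a median of -0.22, and 94 genes lay below 0 and 44 above. A 2-fold limit was passed upward by 6 genes and downward by 15. Among all 188 genes that held 20 or more molecule-equivalents in the 2 libraries together, 5.32% were 2-fold higher, 5.85% were 2-fold lower and the median was -0.16. The 188 are no separate set, since 134 of them are among the 138. Of the other 54, 4 were 2-fold higher and 0 were 2-fold lower, with a median of -0.05. The exact 95% counting interval of the ratio lay above 0 for 9 of the 138 genes and below 0 for 21, against 5.32% and 9.04% of the 188. The 138 genes held 46.8% of counts in the control and 46.2% after light.

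The direction of this balance depended on the scaling. Median-of-ratios scaling, which sets the typical gene seen in both libraries to no change, raised the log2 ratios by 0.48 (Actb, 0.02 to 0.50). It put 19 of the 138 genes past 2-fold upward and 6 downward, with a median of 0.25. Its factor was taken over every gene with a count in both libraries, with no lower limit on counts. A single molecule-equivalent is 87.0 CPM in the control and 47.1 CPM in the light library. How far this difference in depth enters the factor was not tested. Under this scaling the 188 genes above had a median of 0.32, away from no change. Values below are scaled to the library total, and a ratio between 0 and about -0.48 changes its sign under the other scaling. Of the 30 genes whose interval excluded 0, 14 had intervals on the same side of 0 under all 6 alternatives tried on single genes. Among the alternatives, a prior of 5 does not enter the interval, and an unweighted mean of columns per molecule only narrows it. Each left all 30 in place, as it had to, and carries no support. Of the 14, 8 reached 1000 CPM in both libraries. On the higher side these were Nphp4, Prkcsh, Tmbim4, mt-Rnr2 and CT010467.1, and on the lower side Gm12374, Ccl5 and Ifi27l2a. The other 6, Ptprc, Blmh, Nrg2, Cdk14, Ssb and Cebpb, reached it only in the library where they were high, so their side of 0 followed from the choice and carries no support.

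**Figure D1:**
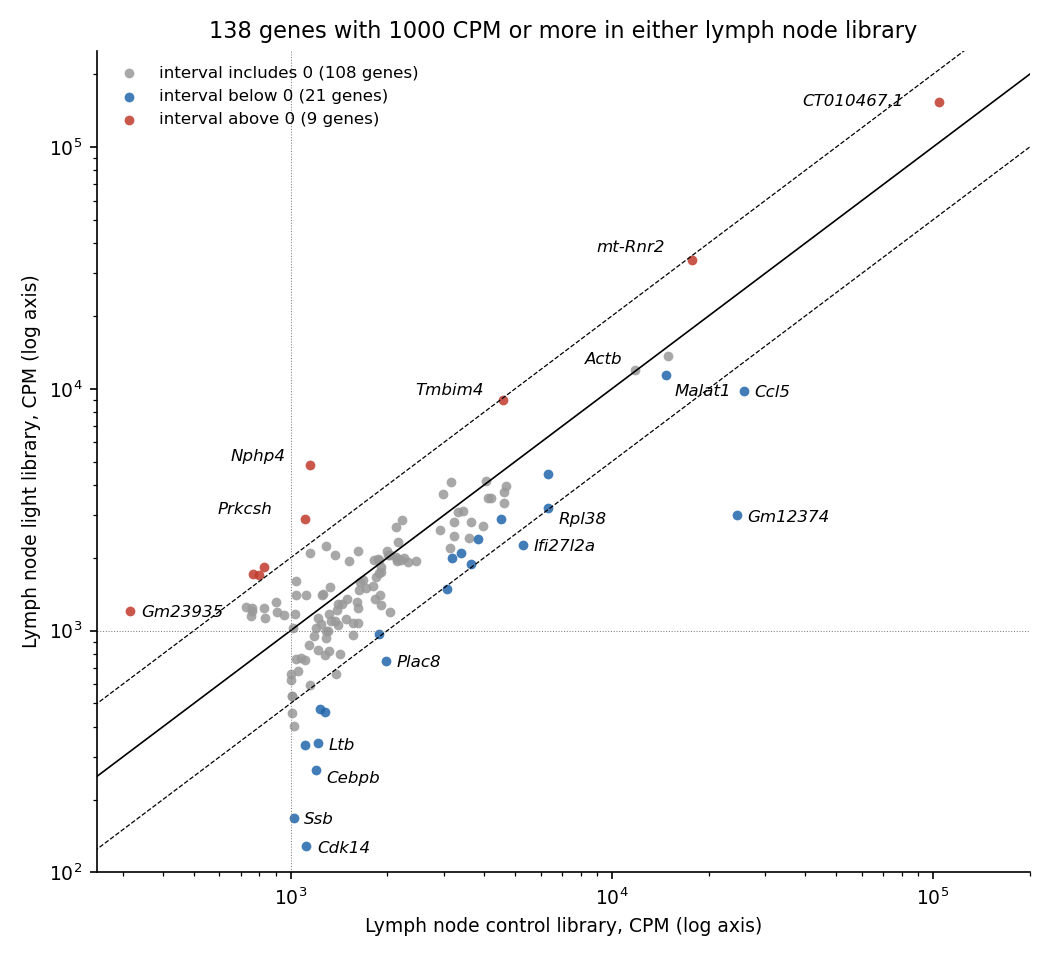
Level of each of the 138 genes in the lymph node control library (x axis, CPM, log scale) and the lymph node light library (y axis, CPM, log scale), 1 library each. The solid line marks equal levels, the dashed lines 2-fold, the dotted lines 1000 CPM, and colour the place of the counting interval: 9 genes lie above 0, 21 below 0 and 108 include 0.

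The limit itself shaped the margins. At or above 1000 CPM in both libraries were 96 genes, of which 2 passed 2-fold upward and 4 downward. Another 29 genes passed in the control alone and 13 in the light library alone, so their direction was given by the choice, and they supplied 11 of the 15 lower and 4 of the 6 higher genes. Just inside the limit stood Elob at 1003 CPM, Cd3d at 1006 CPM and Tsc22d4 at 1010 CPM, and just outside it Cox7a2 at 989 CPM and Gnas at 999 CPM. Nphp4 and Prkcsh were the 2 higher genes, and Gm12374, Ccl5, Ifi27l2a and Rpl37a the 4 lower genes, among those that passed in both libraries.

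Nphp4, which encodes the ciliary protein nephrocystin-4, showed the largest ratio. It stood at 1147 CPM in the control and 4828 CPM after light, a log2 ratio of 2.04 (interval 1.24 to 3.02). Untangling the overlapping columns gave 14.1 molecules of Nphp4 among 12299 recovered in the control, and 123 among 26653 after light. The gene lies on chromosome 4 from 152476706 to 152563183 (mm10) and overlaps Kcnab2 on the opposite strand. Kcnab2 stood at 133 and 108 CPM, and the sources used here do not say whether strand was used in counting.

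Prkcsh, which encodes the beta subunit of glucosidase II, an enzyme that trims N-glycans in the endoplasmic reticulum, stood at 1112 CPM in the control and 2904 CPM after light. Its log2 ratio was 1.36 (0.50 to 2.38), from 13.0 molecules and 83.0 molecules. Krtcap2, a subunit of the oligosaccharyltransferase that attaches such glycans, stood at 1559 and 1071 CPM, with a ratio of -0.53 and an interval of -1.50 to 0.44. The list of 24 genes of endoplasmic reticulum translocation, folding and glycosylation summed to a ratio of 0.35 (-0.07 to 0.78), and no other gene of that list was among the 138.

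Ptprc encodes CD45, the tyrosine phosphatase that sets the activity of T-cell receptor kinases. It stood at 764 CPM in the control and 1721 CPM after light, a log2 ratio of 1.14 (0.08 to 2.42). Of the 5 T-cell identity genes among the 138 Ptprc alone lay above 0. Ptprc passed the limit in the light library alone, and Cd3d and Thy1 passed it in the control alone. The direction of these genes was therefore fixed by the choice. Trbc2, which encodes a constant region of the receptor's beta chain, stood at 3592 and 2419 CPM (-0.56, interval -1.19 to 0.06), and its near-identical neighbour Trbc1 at 1248 and 1063 CPM, and how reads of the pair were shared out is not given. Cd3d, a chain of the CD3 complex, stood at 1006 and 662 CPM (-0.58), and the T-cell surface protein Thy1 at 1140 and 870 CPM (-0.38). The intervals of these 4 genes included 0, and the 20 T-cell identity genes summed to -0.12 (-0.42 to 0.18). Of the CD4 T-cell markers under the limit, Cd3e, Trac, Lck, Lat and Cd5 had more CPM after light, and Cd3g, Cd4 and Cd2 less. In the control Cd3e rested on 1.54 and Cd5 on 0.76 molecule-equivalents, below the 3 that set the floor of 261 CPM. Cd3g hardly differed, at 590 and 569 CPM, and these orders are not read further.

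Other protein-coding genes and 1 microRNA model on the higher side belonged to different lists or to none. Tmbim4, which encodes a membrane protein of the Golgi that protects from apoptosis, stood at 4591 CPM in the control and 9029 CPM after light (0.97, interval 0.53 to 1.44), from 63.3 and 255 molecules. Blmh, the cytosolic cysteine protease bleomycin hydrolase, stood at 824 and 1838 CPM (1.13, interval 0.11 to 2.36). Nrg2, which encodes the growth factor neuregulin 2, stood at 795 and 1706 CPM (1.07, interval 0.03 to 2.33). In the control, Blmh rested on 9.47 and Nrg2 on 9.14 molecule-equivalents, and both, like Ptprc and Gm23935, passed the limit in the light library alone. Gm23935, annotated as a microRNA model of 57 bases, stood at 317 and 1203 CPM (1.83, interval 0.34 to 4.02). It rests on 3.65 molecule-equivalents in the control and lies within Zc3h7a on the opposite strand, and with each molecule counted once its ratio was 1.32 (-0.02 to 3.10).

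Several further genes of this kind lay above 0 with intervals that included it. Gm45153, a provisional gene model, stood at 1153 CPM in the control and 2090 CPM after light (0.84). Enpep, which encodes glutamyl aminopeptidase, stood at 1042 and 1604 CPM (0.61), and Oit3, which encodes a secreted protein of the liver, at 756 and 1202 CPM (0.65). Zmynd8, a reader of histone marks, stood at 2217 and 2879 CPM (0.37).

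Ccl5, the chemokine made by effector and memory T cells, was the most abundant protein-coding message of the control library by CPM, which is not divided by gene length, and was lower after light. It stood at 25735 CPM in the control and 9814 CPM after light, a log2 ratio of -1.39 (-1.65 to -1.13), from 309 and 266 recovered molecules. In pooled cells, fewer cells of a type and less RNA per cell cannot be told apart. Nkg7, a granule protein of cytotoxic and Th1 cells, stood at 1038 and 1404 CPM (0.43, interval -0.58 to 1.54), on the other side of 0. Ccl5 and Nkg7 were the 2 of 15 Th1 and cytotoxic genes among the 138, and that list summed to -1.20 (-1.44 to -0.97) with Ccl5 and to -0.28 (-0.88 to 0.33) without it. Srgn, which encodes the granule proteoglycan serglycin, stood at 1074 and 773 CPM (-0.46), and Id2, an inhibitor of E proteins in effector lymphocytes, at 1900 and 1402 CPM (-0.43), both with intervals that included 0.

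Ifi27l2a, an interferon-inducible gene, was also lower. It stood at 5287 CPM in the control and 2269 CPM after light (-1.21, interval -1.80 to -0.65), from 61.8 and 58.0 molecules. No other of the 23 interferon-response genes reached 1000 CPM, and without Ifi27l2a the list summed to -0.04 (-0.57 to 0.51). The MHC class I genes went both ways. B2m, the light chain of class I molecules, stood at 3186 and 1988 CPM (-0.67), with an interval from -1.35 to just under 0. H2-K1, a class I heavy chain, stood at 1617 and 2131 CPM (0.39, interval -0.41 to 1.26). The 14 MHC class I genes summed to -0.22 (-0.60 to 0.17).

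All 5 lymphocyte surface genes among the 138 lay below 0, of which Ltb and Plac8 had intervals below 0. Ltb, Plac8 and Ly6e reached 1000 CPM in the control alone, so their direction was fixed by the choice and carries no support. Ltb, which encodes lymphotoxin beta, a membrane cytokine that shapes lymphoid tissue, stood at 1215 CPM in the control and 341 CPM after light (-1.74, interval -3.36 to -0.44). Plac8, a small cysteine-rich protein of lymphocytes and myeloid cells, stood at 1977 and 752 CPM (-1.36, interval -2.42 to -0.41). Ly6a stood at 3643 and 2825 CPM (-0.36), Ly6e at 1186 and 951 CPM (-0.31) and Cd52 at 1410 and 1286 CPM (-0.13), all with intervals that included 0 and ratios that change sign under median-of-ratios scaling. The 15 genes of this list summed to -0.53 (-0.87 to -0.19), or to -0.05 (-0.39 to 0.29) under that scaling. Ms4a4b and Ms4a6b, related membrane proteins of T cells, differed in sign, with 2124 and 2672 CPM for Ms4a4b (0.33) and 1617 and 1077 CPM for Ms4a6b (-0.57), and both intervals included 0. Markers of B and plasma cells, which also express Ltb, summed to 11.7 molecule-equivalents in the control and 4.11 after light, and their part in these values was not tested.

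**Figure D2:**
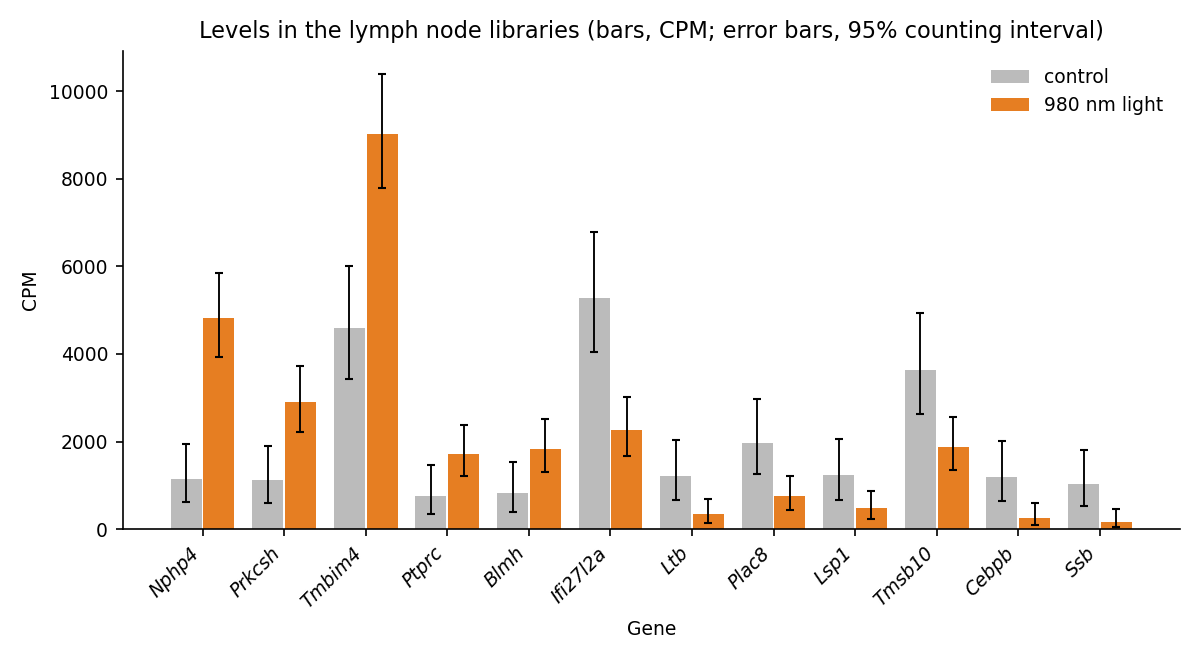
Level in CPM (y axis) of 12 of the genes in the lymph node control library (grey) and the lymph node light library (orange). Bars are the single library's value and error bars its exact 95% counting interval. Nphp4 goes from 1147 to 4828 CPM and Ifi27l2a from 5287 to 2269 CPM.

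Genes of the actin cytoskeleton were at similar or lower levels after light, and their balance turned under median-of-ratios scaling. Actb, which encodes beta-actin, stood at 11820 CPM in the control and 11964 CPM after light (0.02, interval -0.29 to 0.33), and Tmsb4x, the actin-sequestering thymosin beta 4, at 14961 and 13680 CPM (-0.13, interval -0.41 to 0.15). Tmsb10, the related thymosin beta 10, was lower at 3643 and 1886 CPM (-0.94, interval -1.61 to -0.29). Lsp1, an actin-binding protein of leukocytes, was lower at 1234 and 475 CPM (-1.32, interval -2.70 to -0.11), from 15.0 and 15.0 recovered molecules in libraries of unequal depth. Actg1, which encodes gamma-actin, was lower at 3844 and 2388 CPM (-0.68, interval -1.30 to -0.07), and its protein is nearly the same as that of Actb. Cfl1, Arpc2, Myl6, S100a6 and S100a10 had ratios between -0.40 and 0.15 with intervals that included 0. Of the 10 genes, 6 lay below 0, and the full list of 32 summed to -0.22 (-0.37 to -0.07), which turned to 0.26 (0.11 to 0.41) under median-of-ratios scaling.

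The low end also held 5 genes of different lists or of none, all between 1023 and 1278 CPM in the control. Cebpb, a transcription factor best known in myeloid cells, stood at 1201 CPM in the control and 265 CPM after light (-2.06, interval -3.91 to -0.68), from 14.2 and 5.00 molecules. Ssb, the La protein that binds the ends of RNA polymerase III transcripts, stood at 1023 and 168 CPM (-2.41, interval -4.83 to -0.81). Cdk14, a cyclin-dependent kinase, stood at 1120 and 128 CPM (-2.86, interval -5.73 to -1.20), the latter on 2.72 molecule-equivalents, below the 3 that set the floor of 141 CPM in the light library. Pabpc1, the poly(A)-binding protein of the cytoplasm, stood at 1112 and 337 CPM (-1.64, interval -3.28 to -0.29). Tspo, a transporter protein of the outer mitochondrial membrane, stood at 1278 and 461 CPM (-1.41, interval -2.80 to -0.21).

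These 5 genes, like Ltb, Plac8 and Lsp1, passed the limit in the control alone, so their direction was fixed by the choice. The adhesion protein gene Emb at 1026 and 401 CPM (-1.29) and the leucine-zipper gene Tsc22d4 at 1010 and 457 CPM (-1.10) were also 2-fold lower, with intervals that included 0. The panel of 9 myeloid markers held 3.92 molecule-equivalents in the control and 10.8 after light, of which Lyz2 held 0 and 6.21, and the list of 12 myeloid genes summed to a log2 ratio of -0.24 (-1.55 to 1.13). Chromatin and splicing genes other than Ssb ranged from -0.57 for Hmgb2, a high-mobility-group protein, to 0.58 for the splicing protein Srrm2, and no interval excluded 0. Sfswap, a splicing regulator, stood at 3230 and 2462 CPM (-0.39), H3f3b, which encodes histone H3.3, at 1220 and 831 CPM (-0.54), and Ptma at 1496 and 1347 CPM (-0.15). Tpt1, a translationally controlled protein, stood at 1840 and 1659 CPM (-0.15), and the initiation factor Eif1 at 756 and 1235 CPM (0.69).

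**Figure D3:**
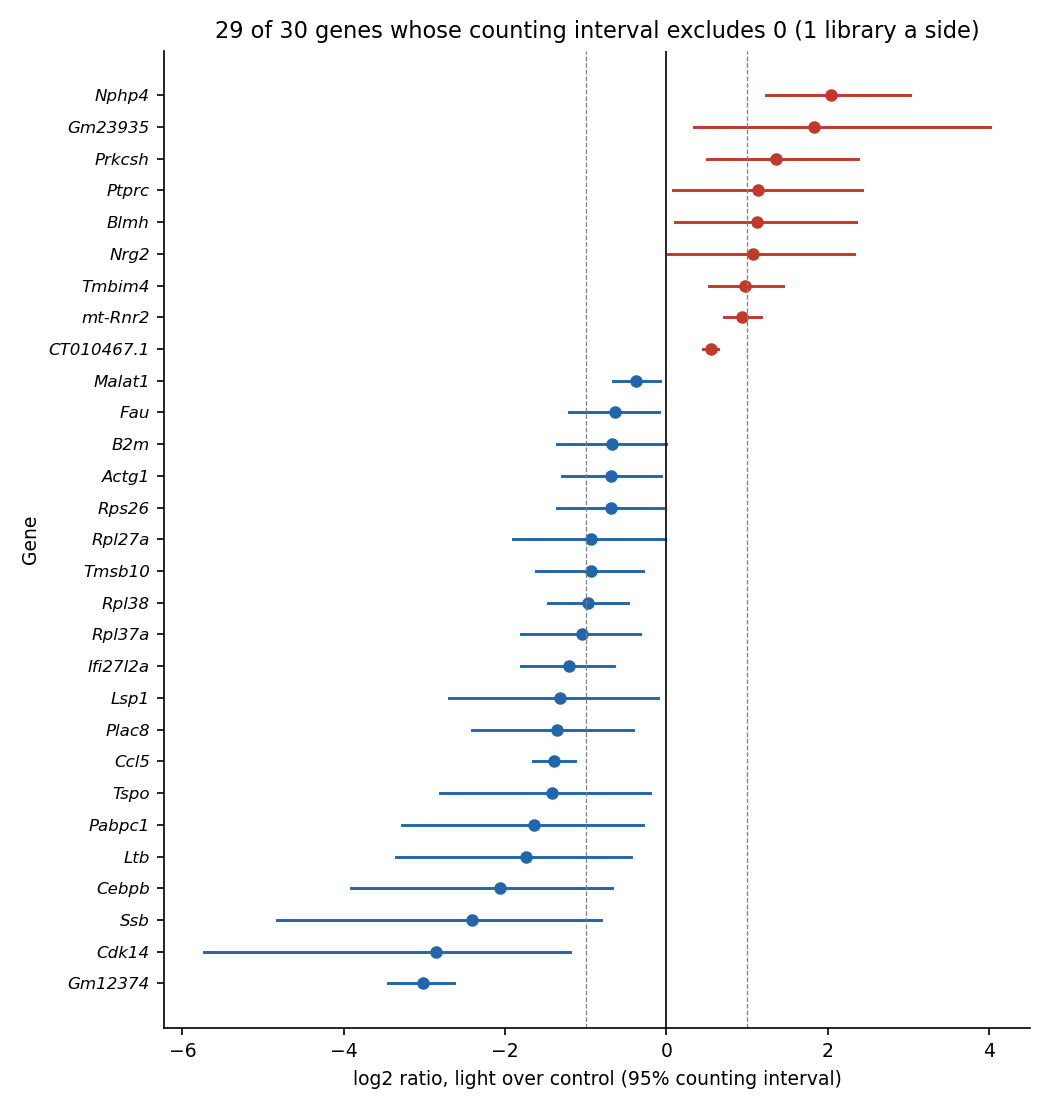
log2 ratio of light over control (x axis) of 29 of the 30 genes whose exact 95% counting interval excludes 0, ordered by ratio. Points are the ratio of the 2 single libraries and lines the interval, which covers counting error only. The 9 red genes run from 0.55 for CT010467.1 to 2.04 for Nphp4 and the 20 blue genes from -0.37 for Malat1 to -3.02 for Gm12374.

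Abundant noncoding RNA differed most in number of counts. Gm12374, a long noncoding RNA on chromosome 4 from 37249403 to 37332515, stood at 24471 CPM in the control and 2995 CPM after light (-3.02, interval -3.45 to -2.63), from 296 and 79.5 molecules. Ribosomal RNA lay in the other direction. CT010467.1, an annotated ribosomal RNA gene on chromosome 17, stood at 104677 and 153184 CPM (0.55, interval 0.45 to 0.65). Malat1, a nuclear long noncoding RNA, stood at 14770 and 11406 CPM (-0.37, interval -0.66 to -0.08), which turned to 0.11 (-0.18 to 0.40) under median-of-ratios scaling. AW112010, an interferon-inducible transcript of lymphocytes, stood at 3322 and 3089 CPM (-0.10).

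All 3 mitochondrially encoded genes among the 138 lay above 0. The 16S ribosomal RNA mt-Rnr2 stood at 17772 CPM in the control and 34062 CPM after light (0.94, interval 0.71 to 1.17), from 200.5 and 931 molecules, and the 12S ribosomal RNA mt-Rnr1 at 3164 and 4127 CPM (0.38, interval -0.19 to 0.98). mt-Nd1, a subunit of complex I, stood at 1290 and 2232 CPM (0.78, interval -0.08 to 1.74). Of the 13 mitochondrial messages 8 had a count, which summed to 0.74 (0.17 to 1.36), and without mt-Nd1 to 0.71 (-0.07 to 1.57). The other 5, mt-Co2, mt-Co3, mt-Atp6, mt-Atp8 and mt-Nd4l, were listed at 0 in both libraries, although every cell uses them. Cox8a, a nuclear-encoded subunit of complex IV, stood at 1316 and 825 CPM (-0.65, interval -1.75 to 0.42). The chaperones Hspa8, at 1261 and 1411 CPM (0.16), and Hsp90ab1, at 1910 and 1838 CPM (-0.05), differed by less than their counting error.

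Cytosolic ribosomal protein genes made up 59 of the 138. They held 13.6% of counts in the control and 11.03% after light, and 48 lay below 0 and 11 above, with a median of -0.24 beside -0.15 for the other 79 genes and -0.16 for all 188. Median-of-ratios scaling turned this to 15 below and 44 above, with a median of 0.23 beside 0.32 for the other 79. Of the 59, 6 had intervals below 0 (10.2%, against 9.04% of the 188) and none had an interval above 0 (0 of 59, against 5.32%). At least 2-fold lower were 2 of the 59 (3.39%, against 5.85%). The 188 include these 59 genes, and 134 of the 188 are among the 138, so the shares are a description only. The other 54 genes, all under 1000 CPM in both libraries, had 0 intervals below 0 and 1 above. Many ribosomal protein genes have processed pseudogenes, and the sources used here do not say how reads that match several copies were counted.

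Among the 32 genes of the large subunit, 28 lay below 0. Rpl38, whose protein is needed for the translation of particular messages, stood at 6330 CPM in the control and 3223 CPM after light (-0.97, interval -1.47 to -0.48), from 77.4 and 89.0 molecules. Rpl37a stood at 3076 and 1480 CPM (-1.04, interval -1.80 to -0.32) and Rpl27a at 1879 and 971 CPM (-0.93, interval -1.90 to -0.01). Rpl36a, at 1381 and 663 CPM, was the second gene past 2-fold (-1.02, interval -2.20 to 0.07). Rpl27a and Rpl36a passed the limit in the control alone, so their direction was fixed by the choice. At the other end, Rpl18 stood at 1516 and 1940 CPM (0.35) and Rpl39 at 1119 and 1401 CPM (0.32). The 49 genes of the large subunit summed to -0.36 (-0.48 to -0.24), or to 0.12 under median-of-ratios scaling.

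Among the 27 genes of the small subunit, 20 lay below 0. Fau, which encodes the ribosomal protein eS30 fused to a ubiquitin-like protein, stood at 4526 CPM in the control and 2893 CPM after light (-0.64, interval -1.20 to -0.08). Rps26, at the messenger exit of the ribosome, stood at 3397 and 2097 CPM (-0.69, interval -1.35 to -0.04). Rps15a hardly differed, at 4059 and 4141 CPM (0.03, interval -0.50 to 0.57). Rps15 at 729 and 1251 CPM (0.75) and Rps2 at 902 and 1314 CPM (0.53) lay highest, and both passed the limit in the light library alone. The 34 genes of the small subunit summed to -0.21 (-0.35 to -0.08), or to 0.27 (0.13 to 0.40) under median-of-ratios scaling.

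**Figure D4:**
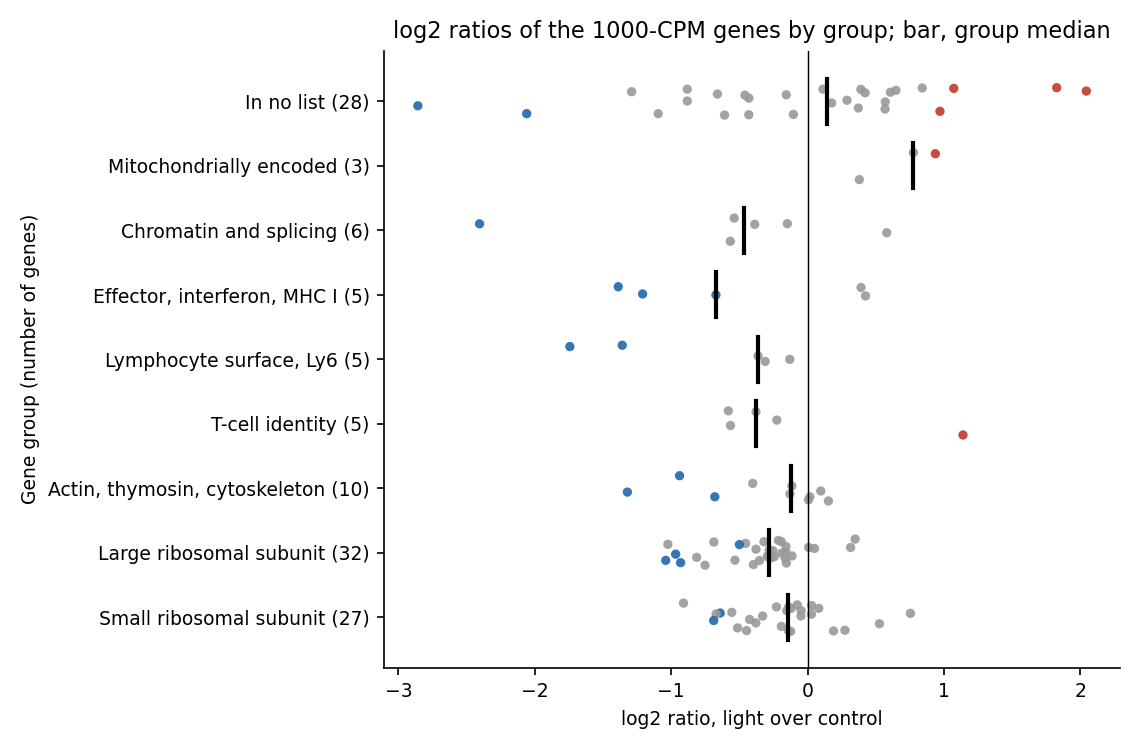
log2 ratio of light over control, scaled to the library total (x axis), of the genes in 9 groups (y axis, number of genes in parentheses). Points are genes, coloured red or blue where the counting interval lies above or below 0, and black bars are group medians. The large-subunit ribosomal genes centre on -0.28 and the small-subunit genes on -0.14, and under median-of-ratios scaling both groups move above 0.

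Ribosomal protein messages begin with a run of pyrimidines after a C at the cap, the 5′ terminal oligopyrimidine tract, through which their translation is controlled together. The start-site sequences of 4 of them are shown, 3 with and 1 without a match to this tract, because ribosomal protein genes are the largest gene group among the 138 and the 4 come from both ends of its range. Sequences are from RefSeq promoter annotation on GRCm38.p6, hold the 60 bases before and the 10 bases from the annotated start, and read 5′ to 3′ on the coding strand. Capitals mark the tract, searched on the coding strand as a C followed by 5 bases that are each C or T, beginning within 5 bases of the annotated start. Rpl38 is at chr11:114668520-114668589 (+), Fau at chr19:6057887-6057956 (+), Rps2 at chr17:24720003-24720072 (+) and Rpl37a at chr1:72711200-72711269 (+).
Rpl38: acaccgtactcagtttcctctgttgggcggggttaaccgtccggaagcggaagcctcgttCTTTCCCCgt
Fau: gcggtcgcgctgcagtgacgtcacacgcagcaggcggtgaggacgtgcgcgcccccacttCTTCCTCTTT
Rps2: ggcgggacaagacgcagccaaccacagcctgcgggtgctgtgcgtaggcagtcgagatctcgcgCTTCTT
Rpl37a: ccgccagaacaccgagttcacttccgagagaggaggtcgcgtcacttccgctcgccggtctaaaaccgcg

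The tract was found in 20 of 51 annotated starts of the ribosomal protein genes (39.2%), in 4 of 68 starts of the other genes among the 138 (5.88%) and in 10.2% of all 32851 starts of the table. Of the 138 genes, 92 were in the table. No match, as for Rpl37a, says only that these letters are not within this window of the annotated start. Within the group, the ratios with and without the tract overlapped. The 19 ribosomal protein genes with it ranged from -0.97 to 0.53 with a median of -0.38. The 24 without it ranged from -1.04 to 0.75 with a median of -0.26, and the difference was not tested. Rpl38 and Rps2, which both carry it, stood at -0.97 and 0.53.

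Gene length was set beside the ratios, since it was not used in choosing the genes. Over all 138 genes the median genomic span was 4.36 kb, and 25 spanned at least 20 kb, of which 23 were among the 79 genes that do not encode ribosomal proteins (median 7.56 kb, against 3.23 kb for the 59 that do). The 9 genes with intervals above 0, none of them a ribosomal protein gene, had a median of 23.3 kb, and the 21 with intervals below 0, 6 of them ribosomal protein genes, a median of 3.81 kb. Of these, 4 of the 9 and 9 of the 21 reached 1000 CPM in 1 library alone, so their direction was fixed by the choice. Among genes at 1000 CPM in both libraries, the 5 with intervals above 0 had a median of 11.4 kb, the 12 with intervals below 0 a median of 2.77 kb, and the 7 of those 12 that are not ribosomal protein genes a median of 4.74 kb. These small sets are described only. Over all 44 genes with a ratio above 0 the median span was 7.32 kb, and over the 94 below 0 it was 3.96 kb. Across the 68 protein-coding genes that are not ribosomal protein genes, which share both libraries, log10 span and log2 ratio had a Pearson r of 0.15 and a Spearman rho of 0.23, given as a description across genes, which are not independent.

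The way of counting moved single values little. With each recovered molecule counted once in place of the summed columns, an alternative chosen after the data were seen, the 138 log2 ratios differed from those above by a median of 0.10 and by at most 0.51, for Gm23935. The sign was the same for 125 of the 138. Of the 30 intervals that excluded 0, 24 did so on the same side, and those of Fau, Gm23935, Lsp1, Malat1, Rpl27a and Rps26 came to include it. The molecules of Ccl5 and Ifi27l2a then gave ratios of -1.33 and -1.20, and those of Nphp4 and Prkcsh ratios of 1.98 and 1.54.

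**Figure D5:**
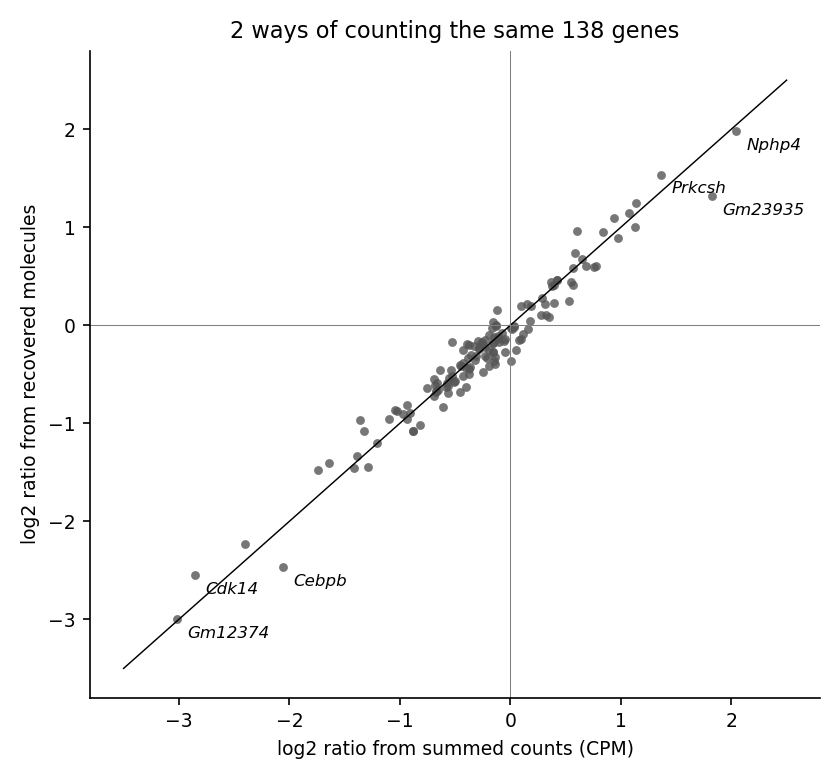
log2 ratio of light over control of the 138 genes from summed counts (x axis) and from recovered molecules counted once each (y axis), with the line of equality. Points lie along the line, with Gm23935 farthest from it at 1.83 and 1.32.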

How the data were processed

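Oligo-dT primed libraries of sorted CD4 T cells carried a sample barcode of 7 bases and a molecular identifier of 8 bases, per the labels' protocols. The submitters' processing notes name FastQC, STAR 2.5.1a and mm10. How reads were counted per gene is not stated there. The authors deposited whole-number counts per gene and barcode column. Foxp3, whose lines in the 4 tables are near copies by column position, was left out, as was an unnamed line of column totals (50.0% of all counts).

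Counts were summed over columns and scaled to CPM. Each gene line was fitted by non-negative least squares to column patterns that at least 2 genes share, exact for 92.7% and 96.7% of genes in the control and light libraries and for 55.9% and 62.9% of counts. Of the 138 genes, 41 were exact in both, and no line missed by over 6.02% of its size. The sum of the coefficients is the number of recovered molecules. Exact 95% Clopper-Pearson intervals of the ratio used molecule-equivalents, and such intervals describe counting error alone. The log2 ratio used a prior of 0.5 molecule-equivalents scaled to depth, the 2-fold count used the plain CPM ratio, and the floor of 3 molecule-equivalents is 261 CPM in the control and 141 CPM in the light library. The calculations were run on simulated data in which every gene was an exact sum of the recovered column patterns. Such data cannot check the intervals of genes whose lines were not exact.

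Genes were named where the interval end nearest to 0 was among the 12 highest or 12 lowest of those excluding 0, where they were among the 10 most abundant of a library, or where they belonged to 1 of 31 gene lists. Others named from the 138 (among them Oit3, Zmynd8, Enpep, Gm45153, Emb, Tsc22d4, Srgn, Id2 and AW112010) were chosen after their values were seen. The genes, lists and limits were chosen with earlier results of these data known. Gene positions are from GENCODE M21 on mm10, which matched all 138 genes. A barcode sheet naming 16 barcodes as replicates was not used, because columns share molecules. Colon libraries entered no comparison. Software was Python 3.11.15 with pandas 2.3.3, numpy 2.4.6, matplotlib 3.10.9 and scipy 1.17.1. 1 gene with an interval below 0 is counted but not reported here by name.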

Additional observations from a re-analysis of the deposited data

How the results depend on the processing

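Under median-of-ratios scaling 19 of the 138 genes were at least 2-fold higher and 6 lower, 22 intervals lay above 0 and 6 below, and the median was 0.25. Over the 188 background genes 33 were higher and 2 lower, with a median of 0.32. Summed list ratios became 0.36 for T-cell identity, 0.53 for naive and central memory, -0.051 for lymphocyte surface, -0.11 for interferon response, 0.56 for heat shock, 0.41 for nuclear complexes I, III and V, 0.12 and 0.27 for the large and small ribosomal subunits, 0.60 for translation factors, 0.44 for splicing, 0.26 for actin and thymosin, -0.20 for glycolysis, 0.83 for endoplasmic reticulum and 0.68 for ubiquitin genes, and Malat1 0.11. Totals without ribosomal RNA and Gm12374 gave -0.15 for actin and thymosin, -0.60 for glycolysis and 0.43 for endoplasmic reticulum genes. Without its most abundant gene a list came to -0.28 (Th1 and cytotoxic), -0.039 (interferon response), 0.71 (mitochondrial messages), 0.38 (mitochondrial ribosomal RNA) and -0.58 (glycolysis). At 500 CPM 26 of 302 genes were 2-fold higher and 48 lower. At 2000 CPM (54 genes) and with 1000 CPM required in both libraries (96 genes) 2 were higher and 4 lower, with 5 intervals above and 12 below 0. A mean of 1000 CPM left 6 lower among 114 genes, a prior of 5 left 3 higher, and all 6884 genes without a filter gave 3484 higher and 1958 lower with a median of 0.69. For these changes the cause was not tested, other than that fewer or more genes entered. No paired analysis was possible because each group is 1 library. The control library, with 11499 molecule-equivalents, limits precision most.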

Other observations

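Pathways whose genes lay mostly under 1000 CPM were summed by list. Of 39 nuclear genes of respiratory complexes I, III and V with a count, none was among the 138 genes (0 of 39), and the list took 1.01% of counts in the control and 0.966% after light (-0.07, interval -0.40 to 0.27). The 11 genes of complex IV summed to -0.34 (-0.78 to 0.10). Glycolysis genes summed to -0.68 (-1.34 to -0.02), on 38.4 and 44.1 molecule-equivalents, with Aldoa, Pgam1 and Slc2a1 listed at 0 in both libraries. The interval included 0 under median-of-ratios scaling (-0.86 to 0.46), with totals without ribosomal RNA and Gm12374 (-1.26 to 0.06) and without the list's most abundant gene (-1.36 to 0.19). The redox and iron list summed to -0.10 (-0.61 to 0.43), in which Fth1, the ferritin heavy chain, stood at 1805 and 1533 CPM. TRP channel and calcium genes, which include channels proposed as sensors of light, summed to -0.19 (-0.77 to 0.41), with Trpv1 and Trpv4 at 0 in both libraries. Immediate early genes summed to 0.21 (-0.87 to 1.39), with Fos, Fosb, Jund, Dusp1 and Nr4a1 among the genes at 0.

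Prrc2c, a protein of stress granules, and Gm4149, a processed pseudogene on chromosome 13, had the same summed counts, 983 in the control and 572 after light, although their lines differed between columns. In the colon light library Nphp4 stood at 1782 CPM, Tmbim4 at 3449 CPM, Prkcsh at 1490 CPM and Blmh at 876 CPM. All 4 were at 0 in the colon control library of 6180 molecule-equivalents, where 38 of the 138 genes were at 0. The floor of that library is 485 CPM. Before summing, 4 lines of the colon control that repeated the lymph node control by column position were left out, and a left-out gene reads 0. Which of the zeros come from this is not told apart here. For Nrg2 the colon libraries held 417 CPM (control) and 532 CPM (light), and for Ptprc 239.8 and 1092 CPM. The genes listed so far for colon all stood higher in the lymph node light library. Ccl5, Ifi27l2a and Gm12374 stood lower there. Their colon levels, control first and light second, were 1052 and 5540 CPM for Ccl5 and 150 and 573 CPM for Ifi27l2a. For Gm12374 they were 176506 and 24687 CPM. The control value of Ifi27l2a lies under the floor of 485 CPM. Colon levels of the other genes are not listed, and whether the tissues share a direction was not tested. These colon values are levels only.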
